A study of Mus musculus with 6 samples.

Results

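The Rab GTPases are the small GTP-binding proteins that give each compartment of vesicle traffic its identity, and here they were described in the mouse dendritic cell line DC2.4 with and without a Vdbp expression vector. Members were all protein-coding genes of the count table whose symbol is Rab followed by a number and at most 1 letter and 1 further digit. This gave 59 of the 54532 genes in the table, and 46 of them had enough counts to be tested. The libraries labelled Vdbp came from DC2.4 cells carrying a Vdbp overexpression construct (n = 3), and the control libraries from DC2.4 cells carrying the empty vector (n = 3). The ptt5 vector is listed for both groups. Both were transfected, passaged 48 h later and then kept in selective medium, so selection is shared by the controls. The labels give DC2.4 as the cell line and bone marrow derived dendritic cells as the cell type, and do not say whether the selected cells were clones or whether the 3 libraries of a group were separate cultures. The p-values therefore measure only the spread between these libraries, which may be technical.

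A Rab is switched on when an exchange factor loads it with GTP and switched off when a GTPase-activating protein makes it hydrolyse that GTP. In the active form it binds effectors, such as tethers and motor adaptors, that move a vesicle and dock it on its target membrane. A prenyl tail holds it in the membrane, and a GDP dissociation inhibitor takes the inactive form off again. In dendritic cells this traffic carries antigen from phagosomes and early endosomes to lysosomes, and returns loaded MHC molecules to the surface.

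The libraries held 15563800 to 16529104 counts in the Vdbp group and 16376659 to 16710975 in the empty-vector group. Gc, the gene that encodes Vdbp, the vitamin D-binding protein, had 0 counts in all 6 libraries, where 3 counts would be 0.177 to 0.192 CPM (counts scaled to library size). The deposited counts thus do not show the overexpression that the labels name, and the groups are called by their labels throughout. Of 13 dendritic cell markers, 6 had counts of at least 10 in 3 libraries (Cd74, Cd86, Cd40, Irf8, Itgax and Zbtb46). The other 7, among them the class II genes H2-Ab1 and H2-Aa and their regulator Ciita, did not exceed 6 counts in any library. The dendritic markers summed to 436 to 476 CPM in the Vdbp libraries and 406 to 434 CPM in the empty-vector libraries, with no overlap. Cd74 alone had 226, 187 and 195 CPM in the Vdbp libraries and 174, 168 and 164 CPM in the empty-vector libraries. Such a pattern was seen in 5.26% of all tested genes. The groups of Cd86, Cd40, Irf8, Itgax and Zbtb46 each overlapped. Means of Cd86 (78.0 against 83.3 CPM) and Irf8 (54.2 against 59.2 CPM) were lower in the Vdbp group. The 8 macrophage and myeloid markers summed to 4277 to 4564 CPM in the Vdbp libraries and 4523 to 5155 CPM in the empty-vector libraries, with overlap. Lyz2 and Cd68 were the highest of these. Within this list Lyz2 (means 1583 against 1964 CPM), Adgre1 (583 against 671 CPM) and Itgam (61.7 against 71.0 CPM) were lower in every Vdbp library. That pattern was seen in 5.61% of all tested genes. The groups of Cd68, Csf1r, Fcgr1, Ptprc and Mertk each overlapped, and the mean of Csf1r was higher in the Vdbp group (614 against 580 CPM). The sums of these lists cover different genes and are not per length, so the lists are not ranked by them. T cell, B cell and epithelial markers each summed to at most 0.299 CPM in a Vdbp library and 0.355 CPM in an empty-vector library, with Cd3e, Cd3g, Cd8a, Ms4a1, Krt8 and Krt18 at 0. Fibroblast markers summed to 1.12 to 2.17 CPM in the Vdbp libraries and 1.54 to 2.25 CPM in the empty-vector libraries, with Col1a2 and Col3a1 at 0 and Dcn at 13 to 23 counts in the Vdbp libraries and 18 to 31 in the empty-vector libraries. The part of these marker levels in the comparisons was not tested. In such bulk libraries, fewer cells of a type and less RNA per cell cannot be told apart.

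Levels of different genes were compared per length, as FPKM (counts divided by gene length and by 1 constant per library), which the authors deposited beside the counts. Among the 59 Rab genes, 37 had a mean of at least 1 FPKM over the 6 libraries, 21 reached 10 FPKM and 3 reached 100 FPKM. The 3 highest were Rab5c at 133 FPKM, Rab7 at 125 FPKM and Rab1b at 110 FPKM. Rab5c organises the fusion of early endosomes, Rab7 takes late endosomes and phagosomes to lysosomes, and Rab1b acts between the endoplasmic reticulum (ER) and the Golgi. Together these 3 genes held 34.65 to 42.69% of all Rab FPKM in a library. Rab transcripts as a whole took 0.286 to 0.307% of the counts in the Vdbp libraries and 0.299 to 0.312% in the empty-vector libraries. Their summed CPM was 2933, 3035 and 2983 in the Vdbp libraries and 3013, 3127 and 3034 in the empty-vector libraries, so the groups overlapped.

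Of the 16 Rabs of the ER and Golgi, 14 were tested. After Rab1b, the highest were Rab1a at 61.6 FPKM and Rab2a at 52.9 FPKM, which serve the same early secretory route. Rab18, which sits on the ER and on lipid droplets, averaged 28.9 FPKM, and Rab6a, which returns membrane through the Golgi, averaged 25.8 FPKM. Close relatives of these were far lower, with Rab6b at 2.59 FPKM and Rab2b at 0.311 FPKM. Of the 50-base windows of Rab2b, 57.0% are shared with the overlapping genes Tox4 and Gm43766, so its level is uncertain. For Rab6a, 19.0% of the windows are shared with the overlapping gene Mrpl48 and with Gm13082, so its level is less certain. Rab43, a Golgi Rab that mouse dendritic cells use in cross-presentation, averaged 0.667 FPKM. That value is uncertain too, since 74.5% of the 50-base windows of Rab43 are shared with the overlapping gene Gm45140.

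Among endosomal Rabs, 7 of 8 early, 11 of 13 recycling and 4 of 5 late endosome genes were tested. Beside Rab5c, the early endosome group had Rab31 at 38.03 FPKM, Rab20, a phagosome maturation factor, at 27.5 FPKM and Rab21, an integrin traffic factor, at 21.9 FPKM. Of the 50-base windows of Rab20, 22.9% are shared with the overlapping gene E230013L22Rik, so its level is less certain. Rab5b averaged 16.2 FPKM and Rab5a 7.69 FPKM, so Rab5c transcripts were the main form of Rab5. Rab22a, which guides recycling of class I MHC molecules, averaged 10.5 FPKM. Among recycling and surface-delivery Rabs, Rab10 led with 48.6 FPKM, followed by Rab35 with 35.0, Rab11a with 30.1, Rab8b with 28.5 and Rab8a with 19.5 FPKM. Rab9, which returns mannose 6-phosphate receptors from late endosomes to the Golgi, averaged 14.8 FPKM, and Rab7b, a late endosome to Golgi Rab, 7.78 FPKM.

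Rabs of lysosome-related organelles and regulated secretion were mostly low. Rab32, which acts with the BLOC complexes in making such organelles, was the exception at 28.4 FPKM. Its close relative Rab38 had 2 counts over the 6 libraries together. Rab3d averaged 4.10 FPKM, Rab27a, which docks secretory granules and controls phagosome acidification in mouse dendritic cells, 2.84 FPKM, and Rab3a 2.09 FPKM. In all, 7 members had 0 counts in every library (Rab39b, Rab36, Rab9b, Rab3c, Rab27b, Rab42 and Rab40b). The other 6 untested members had totals over the 6 libraries of 2 counts for Rab17, 2 for Rab38, 3 for Rab3b, 4 for Rab26, 30 for Rab4b and 37 for Rab25. Rab3b and Rab3c are also named in cross-presentation by mouse dendritic cells, and these libraries held almost no transcript of either.

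**Figure D1:**
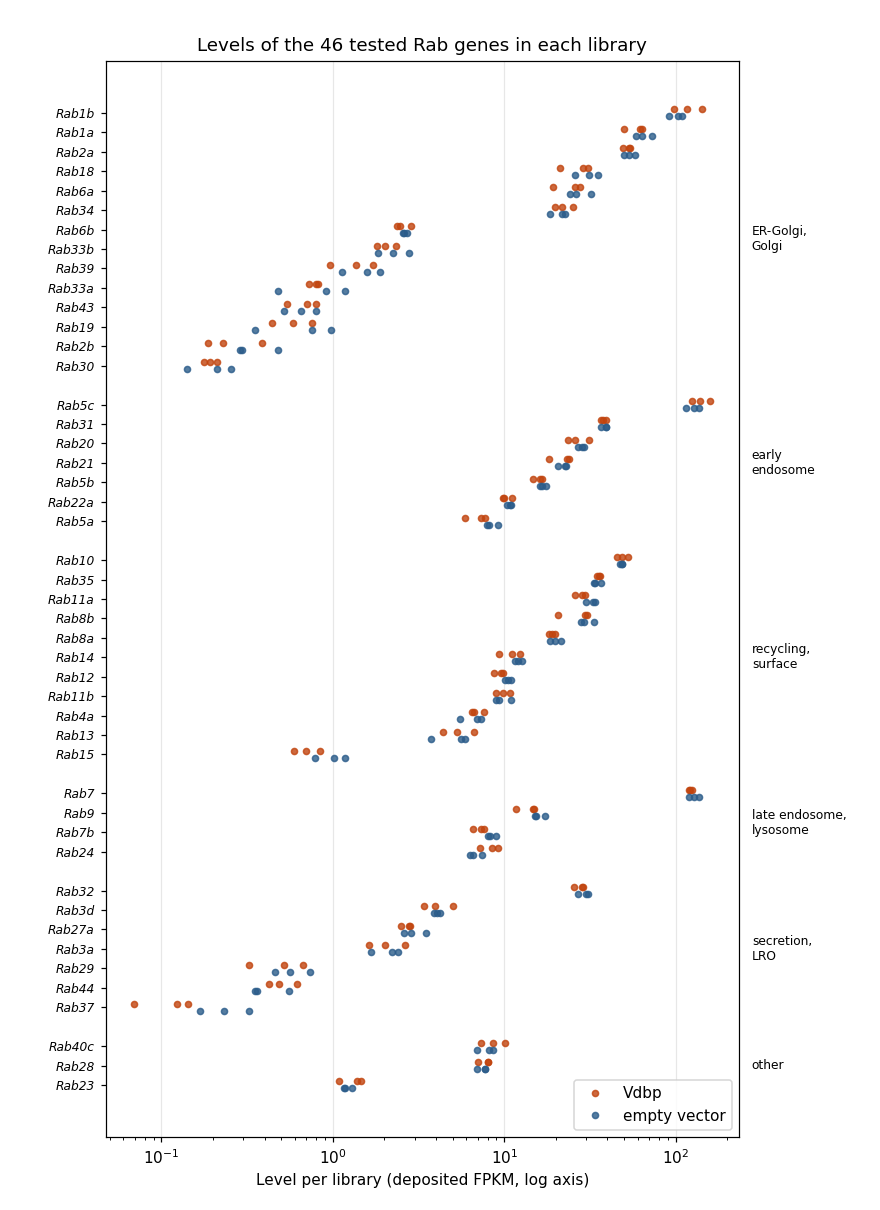
Deposited FPKM of the 46 tested Rab genes on a log axis, with 1 point for each of the 3 Vdbp (orange) and 3 empty-vector (blue) libraries, grouped by the compartment where the protein acts. Rab5c, Rab7 and Rab1b lie at or near 100 FPKM and above, and the secretion group (LRO, lysosome-related organelles) lies mostly below 10 FPKM.

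Vdbp and empty-vector libraries were compared on TMM-scaled counts in 1 fit over all 12844 tested genes. No Rab gene passed an adjusted p of 0.05 in edgeR's quasi-likelihood test (0 of 46), and neither did any other gene (0% of all genes tested). DESeq2 called 0 Rabs and 11 of all genes. The smallest adjusted p among the members was 0.781 (edgeR). At an unadjusted p under 0.05 stood 1 of 46 members, Rab37, against 5.35% of all genes tested. The median log2 fold change, Vdbp over empty vector, was −0.06 over the 46 tested Rabs and −0.01 over all tested genes. Of the 46, 31 had a value below 0 (67.4%), against 51.3% of all genes, and 15 had a value above 0. These shares come from 6 libraries that all genes have in common, and they leave out the 13 untested Rabs. Of the 46, 4 reached the count minimum in fewer than 3 libraries of some group. These were Rab33a and Rab19 (2 empty-vector libraries) and Rab29 and Rab37 (2 Vdbp libraries), and each had a log2 fold change below 0.

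The precision differed with level. For 36 of the 46 Rabs (78.3%) the 95% interval stayed inside 1.5-fold in either direction, against 70.7% of all tested genes. For 42 Rabs (91.3%) it stayed inside 2-fold, against 89.2% of all tested genes. The 4 Rabs whose interval went past 2-fold were Rab19, Rab2b, Rab29 and Rab37, all with a mean below 1 FPKM. For each of the other 42, a change of more than 2-fold lay outside the interval.

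**Figure D2:**
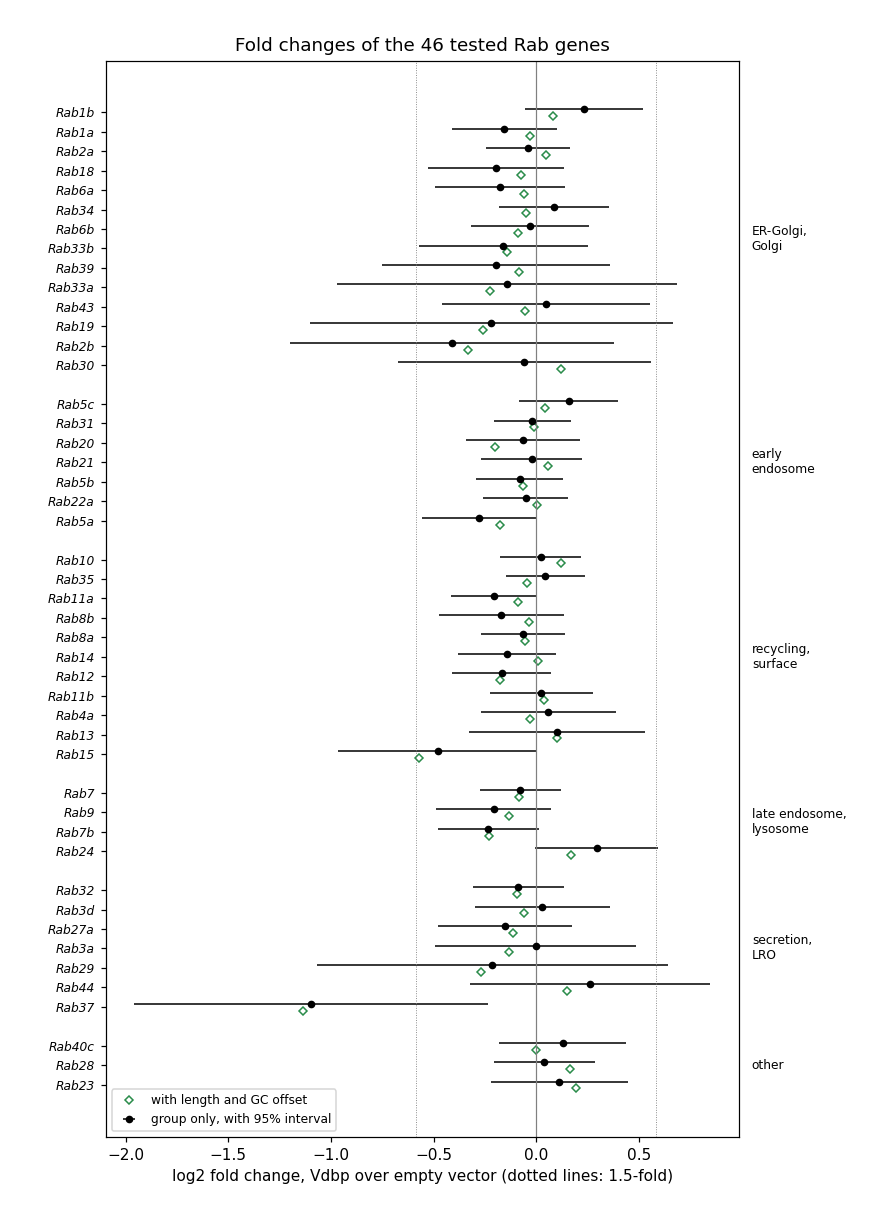
Log2 fold change (Vdbp over empty vector) of the 46 tested Rab genes as black points with 95% intervals from edgeR, grouped by compartment, with green diamonds for the fit with a length and GC offset and dotted lines at 1.5-fold. Of the 46 black points 31 lie left of 0, and Rab37 is the only interval that does not reach 0.

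By compartment, the median log2 fold change was −0.15 for the 14 tested ER and Golgi Rabs, of which 11 were below 0. It was −0.05 for the 7 early endosome Rabs with 6 below 0, and −0.06 for the 11 recycling Rabs with 6 below 0. It was −0.14 for the 4 late endosome Rabs with 3 below 0, and −0.09 for the 7 secretion Rabs with 5 below 0. The 3 Rabs outside these groups (Rab40c, Rab28 and Rab23) had a median of 0.11 with none below 0. Over all tested genes, 51.3% were below 0. With a length and GC offset, the median was −0.07 for the ER and Golgi Rabs (11 below 0) and −0.01 for the early endosome Rabs (4 below 0). It was then −0.04 for the recycling Rabs (7 below 0) and −0.11 for the late endosome Rabs (3 below 0). For the secretion Rabs it was −0.11 (6 below 0), and for the remaining 3 it was 0.16 (1 below 0). No group had a member that passed the test in either fit.

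Values of the 3 libraries of each group did not overlap for 6 of the 46 Rabs in the lower direction (13%), against 5.61% of all tested genes, and for 0 in the higher direction, against 5.26%. These 6 were Rab5a, Rab11a, Rab12, Rab9, Rab7b and Rab37. They were picked out by this pattern, and none passed the test across all genes. Rab37 reached the count minimum in 3 empty-vector libraries but in only 2 Vdbp libraries, where it was lower.

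Rab5a, an early endosome Rab at chr17:53479234-53507680 (GRCm38), had 31.2, 38.4 and 40.9 CPM in the Vdbp libraries and 42.9, 49.3 and 41.8 CPM in the empty-vector libraries. The highest Vdbp value lay just under the lowest empty-vector value. The means were 36.9 ± 5.07 and 44.7 ± 4.08 CPM (SD, n = 3 each), and the log2 fold change was −0.28 with a 95% interval of −0.56 to 0.0024 (adjusted p = 0.781, edgeR). The related Rab5c had 353, 304 and 275 CPM in the Vdbp libraries and 282, 254 and 299 CPM in the empty-vector libraries, with a log2 fold change of 0.16 (SE 0.11). Its groups overlapped, and the high value was that of Vdbp library 1. Rab5b had 70.0, 67.8 and 62.1 CPM in the Vdbp libraries and 67.7, 70.3 and 73.4 CPM in the empty-vector libraries, with a log2 fold change of −0.08.

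Rab11a, the main Rab of recycling endosomes, lies at chr9:64715299-64737758. It had 78.2, 88.3 and 85.8 CPM in the Vdbp libraries and 98.3, 102 and 90.1 CPM in the empty-vector libraries, with a log2 fold change of −0.21 (SE 0.10). Rab12, which steers transferrin receptors to degradation, had 26.6, 29.2 and 29.9 CPM in the Vdbp libraries and 30.6, 33.6 and 32.0 CPM in the empty-vector libraries, with a log2 fold change of −0.17 (SE 0.11). In both genes the highest Vdbp library lay just under the lowest empty-vector library. Rab15, another recycling endosome Rab, had 3.92, 3.23 and 2.75 CPM in the Vdbp libraries and 5.41, 3.68 and 4.73 CPM in the empty-vector libraries. Its log2 fold change was −0.48 (SE 0.22), and Vdbp library 1 lay above empty-vector library 2. Rab10, which carries Toll-like receptor 4 to the surface in mouse macrophages, had 161, 186 and 172 CPM in the Vdbp libraries and 165, 174 and 172 CPM in the empty-vector libraries, with a log2 fold change of 0.02.

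In the late endosome group, Rab7 had 316, 315 and 326 CPM in the Vdbp libraries and 336, 361 and 314 CPM in the empty-vector libraries, with a log2 fold change of −0.08 (SE 0.09). Rab7b had 34.0, 35.4 and 30.3 CPM in the Vdbp libraries and 38.3, 41.9 and 37.1 CPM in the empty-vector libraries. For Rab7b every Vdbp library lay below every empty-vector library, and the log2 fold change was −0.23 (SE 0.11). Rab9 had 20.7, 26.1 and 25.7 CPM in the Vdbp libraries and 26.3, 30.6 and 26.9 CPM in the empty-vector libraries, with a log2 fold change of −0.21 (SE 0.13). Rab24, an atypical Rab linked to autophagy, went the other way, with 18.7, 14.6 and 17.2 CPM in the Vdbp libraries and 13.3, 12.9 and 15.02 CPM in the empty-vector libraries. Its log2 fold change was 0.29 (SE 0.14), the groups overlapped, and 49.6% of its 50-base windows are shared with the overlapping gene Prelid1.

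Rab37, a Rab of secretory granules, had the largest fold change of the 46 and one of the lowest levels. It had 6, 11 and 12 counts in the Vdbp libraries and 28, 15 and 21 counts in the empty-vector libraries, which is 0.599 ± 0.203 and 1.29 ± 0.410 CPM (SD, n = 3 each). The groups did not overlap, and the log2 fold change was −1.10 with a 95% interval of −1.96 to −0.23 (adjusted p = 0.781, edgeR). Cd300lf lies within the same stretch on the opposite strand, and whether the counts used strand is not given in the sources used here. Rab32, the most abundant secretion Rab, had 60.1, 67.5 and 66.9 CPM in the Vdbp libraries and 63.4, 70.8 and 72.5 CPM in the empty-vector libraries, with a log2 fold change of −0.09.

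At the start of the secretory route, Rab1b had 265, 213 and 180 CPM in the Vdbp libraries and 189, 171 and 201 CPM in the empty-vector libraries. The means were 219 ± 42.7 and 187 ± 15.1 CPM (SD, n = 3 each), with a log2 fold change of 0.23 and a 95% interval of −0.06 to 0.52. Vdbp library 1 was the highest and Vdbp library 3 lay within the empty-vector values. Rab1a had 191, 235 and 242 CPM in the Vdbp libraries and 241, 279 and 224 CPM in the empty-vector libraries, with a log2 fold change of −0.16. Rab40c, which recruits a ubiquitin ligase and leads the group without a clear compartment, had 31.4, 22.7 and 26.6 CPM in the Vdbp libraries and 25.1, 21.9 and 26.9 CPM in the empty-vector libraries, with a log2 fold change of 0.13.

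**Figure D3:**
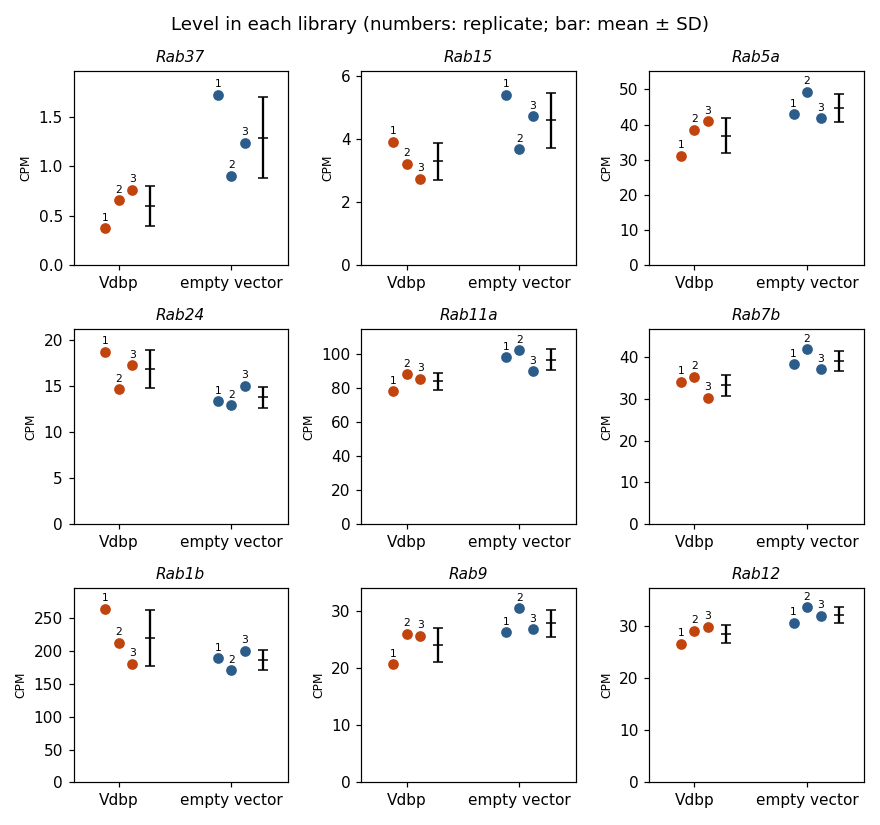
CPM of 9 Rab genes in each library, numbered by replicate, Vdbp left of empty vector, with bars for the mean and SD of the 3 libraries of each group. Rab5a, Rab11a, Rab7b, Rab9, Rab12 and Rab37 show no overlap between the groups, and Rab15, Rab24 and Rab1b overlap.

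Within the pairs and trios of near-identical Rabs, the values of the GC-rich member and of the AT-rich member moved apart between libraries. The stretch of coding sequence around the conserved nucleotide-binding residues shows how such relatives differ in base composition while encoding the same amino acids. The windows below, 20 codons each, are from the GENCODE M21 transcripts (GRCm38), read 5′ to 3′ on the coding strand, with capitals marking positions at which the relatives differ. They cover 60 bases of each transcript and are printed as an example of what separates the relatives' reads.
Rab5c: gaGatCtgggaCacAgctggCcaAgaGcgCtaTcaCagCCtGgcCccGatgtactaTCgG
Rab5b: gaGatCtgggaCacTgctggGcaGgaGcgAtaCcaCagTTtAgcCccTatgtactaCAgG
Rab5a: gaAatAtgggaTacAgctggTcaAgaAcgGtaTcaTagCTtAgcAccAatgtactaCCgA
Rab1b: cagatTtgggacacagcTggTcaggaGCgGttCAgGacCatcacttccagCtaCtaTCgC
Rab1a: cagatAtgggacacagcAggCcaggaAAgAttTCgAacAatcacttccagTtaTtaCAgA
Rab11b: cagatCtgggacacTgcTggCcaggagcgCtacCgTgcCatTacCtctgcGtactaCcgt
Rab11a: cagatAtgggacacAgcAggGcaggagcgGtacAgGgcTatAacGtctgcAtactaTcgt

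The Rab5c window lies at chr11:100718473-100718532 on the minus strand, that of Rab5b at chr10:128683237-128683296 on the minus strand and that of Rab5a at chr17:53497577-53497636 on the plus strand, each within exon 3. The Rab1b window spans exons 3 and 4 at chr19:5104683-5104838 (minus), and that of Rab1a exons 3 and 4 at chr11:20218903-20223137 (plus). The Rab11b window spans exons 2 and 3 at chr17:33749051-33749831 (minus), and that of Rab11a exons 2 and 3 at chr9:64726808-64728283 (minus). Rab5a and Rab5c differed at 13 bases in 12 codons and Rab1a and Rab1b at 15 bases in 12 codons, and all of these codon differences were synonymous. The same held for Rab11a and Rab11b, which differed at 12 bases in 11 codons. Over the whole coding sequence, the third codon base was G or C in 64.1% of codons in Rab5c, 56.3% in Rab5b and 31.6% in Rab5a. It was G or C in 68.7% of codons in Rab1b and 46.3% in Rab1a, and in 67.9% in Rab11b and 39.8% in Rab11a. Of the 46 tested Rabs, 1 shared any 50-base window with another Rab, namely Rab11b with the untested Rab4b, and no such window is common to the relatives printed above.

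Rab5c made up 87.7, 85.5 and 84.8% of the FPKM of the Rab5 trio in the Vdbp libraries and 84.1, 81.6 and 84.3% in the empty-vector libraries. The groups did not overlap, and no exact permutation test of 3 against 3 can go below p = 0.1 (two-sided). This share was picked after the values were seen. As log2 of the FPKM ratio, Rab5c over Rab5a was 4.763, 4.248 and 4.011 in the Vdbp libraries and 3.981, 3.628 and 4.105 in the empty-vector libraries, with overlap. Its difference was 0.44, and 0.22 with a length and GC offset. The ratio of Rab5c over Rab5b did not overlap. Rab1b made up 74.2, 65.2 and 60.7% of the Rab1 pair in the Vdbp libraries and 61.9, 55.9 and 65.0% in the empty-vector libraries. For this Rab1b share the groups overlapped, with Vdbp library 1 highest and empty-vector library 2 lowest. Rab11a made up 73.9 ± 3.07% of the Rab11 pair in the Vdbp libraries and 76.9 ± 2.03% in the empty-vector libraries (SD, n = 3 each).

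The same 2 libraries stood at the ends of a base-composition trend over all genes. Across all tested genes, the deviation of a gene's log2 level from its mean over the libraries had a Spearman rho with GC content of 0.744 in Vdbp library 1 and −0.635 in empty-vector library 2. The other 4 libraries lay between −0.406 and 0.069. Over the 46 Rabs the rho was 0.722 in Vdbp library 1 and −0.542 in empty-vector library 2. The fold changes followed it, with a rho between log2 fold change and GC content of 0.45 over the 46 Rabs and 0.54 over 12834 tested genes with a GC value. The genes share their libraries, so these are descriptions with no test. The 22 Rabs with the lower GC content (40.2 to 49.5%) had a median log2 fold change of −0.15 with 18 below 0, and the 24 with the higher GC content (49.6 to 56.8%) had a median of −0.02 with 13 below 0. Without Vdbp library 1 and empty-vector library 2 the rho over the 46 Rabs was −0.26 and their median log2 fold change −0.032. The log2 fold changes of Rab5c (−0.0091) and Rab1a (0.034) then had the opposite sign.

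**Figure D4:**
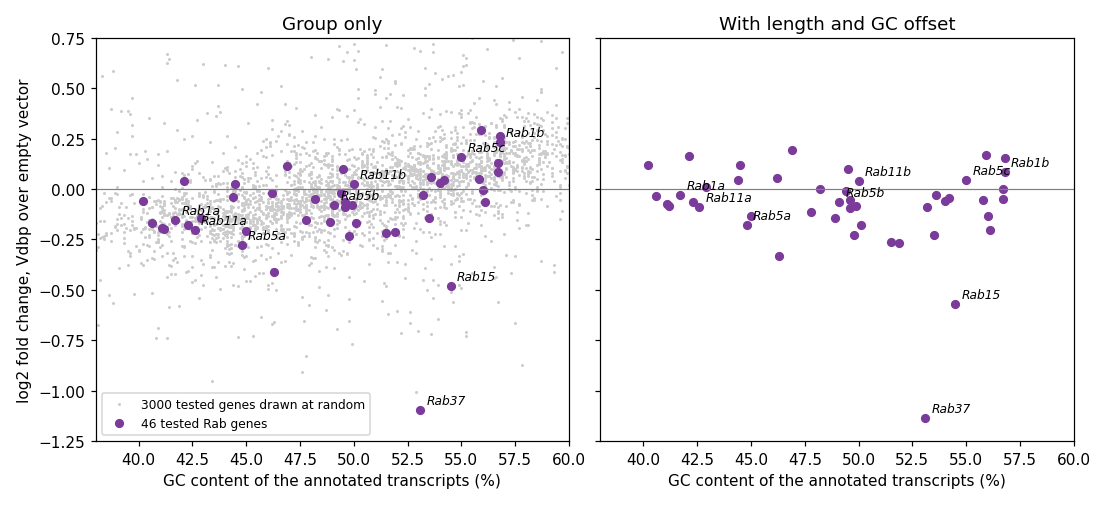
Log2 fold change (Vdbp over empty vector) against the GC percent of each gene, for the 46 Rabs (purple) without (left) and with (right) a per-library offset for length and GC content, and on the left also for a random draw of tested genes (grey). The rho over the Rabs is 0.45 on the left and −0.10 on the right.

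**Figure D5:**
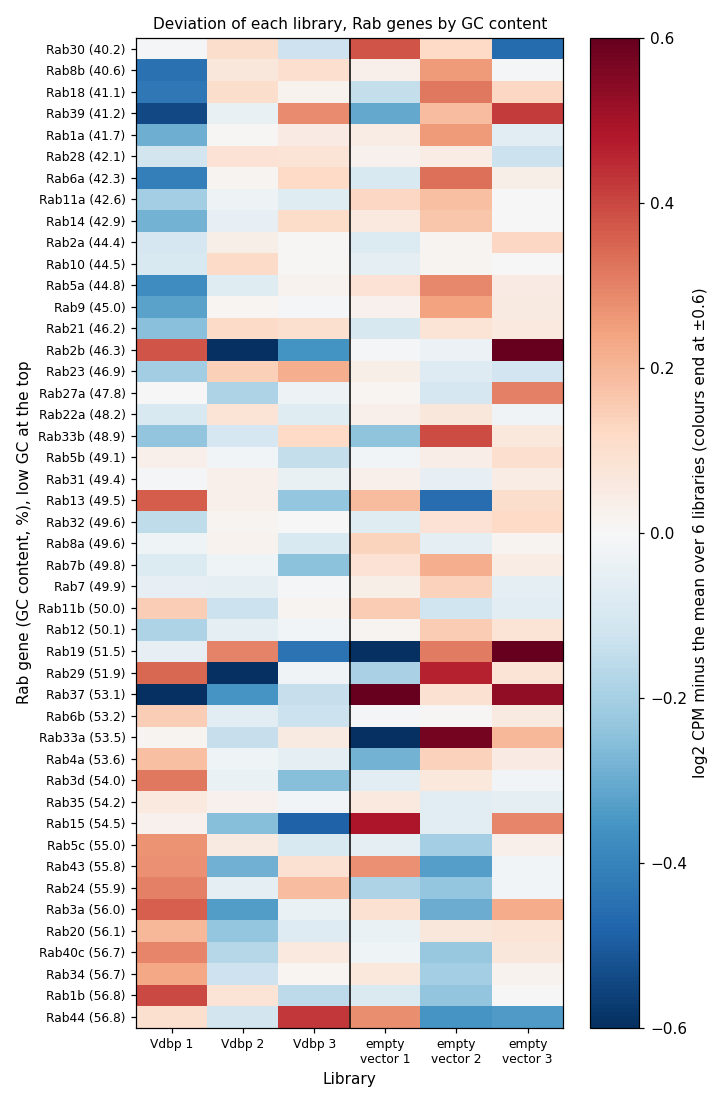
Deviation of each tested Rab from its mean log2 level in each library, with the Rabs ordered by GC content. Vdbp library 1 runs from low to high with GC content and empty-vector library 2 runs the other way.

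A fit with a per-library offset for transcript length and GC content was therefore set beside the first. It called 0 of the 46 Rabs (0.0156% of all genes), with a smallest adjusted p of 0.467 for Rab15 (edgeR). The median over the 46 remained −0.06, with 32 below 0 (69.6%), against 49.8% of all genes. Unadjusted p-values under 0.05 were given to 5 Rabs (9.3% of all genes), namely Rab5a, Rab20, Rab15, Rab7b and Rab37. Several values that stood out among the relatives were nearer to 0 with the offset. The log2 fold change of Rab1b was 0.08, that of Rab5c 0.04, that of Rab1a −0.03, that of Rab11a −0.09 and that of Rab24 0.17. Values of Rab7b (−0.23), Rab12 (−0.18) and Rab37 (−1.14) were close to those without it, and those of Rab5a (−0.18) and Rab9 (−0.13) were smaller in size. With the offset, 7 Rabs lay lower in every Vdbp library (15.2%), against 6.91% of all tested genes, and 0 lay higher, against 6.6%. Rab11a was no longer among them, and Rab15 and Rab20 were.

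The machinery that loads, switches and reads the Rabs was followed through 4 lists. None of their genes passed the test across all genes (edgeR). All 8 chaperone and prenylation genes were tested, and their median log2 fold change was −0.05. Gdi2, the GDP dissociation inhibitor that keeps inactive Rabs in the cytosol, had 363, 454 and 478 CPM in the Vdbp libraries and 499, 567 and 443 CPM in the empty-vector libraries, with a log2 fold change of −0.22. Rabac1, which is reported to help release Rabs from that inhibitor, had 82.2, 72.7 and 67.6 CPM in the Vdbp libraries and 71.7, 54.7 and 64.5 CPM in the empty-vector libraries, with a log2 fold change of 0.22. Both groups of values overlapped, and with the length and GC offset the values were −0.08 for Gdi2 and 0.06 for Rabac1.

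Of 36 exchange factors, 35 were tested, and the median of their log2 fold changes was 0.05. In 4 of these 35 every Vdbp library lay above every empty-vector library, against 5.26% of all tested genes. In 1 of the 35 every Vdbp library lay below, against 5.61%. With the length and GC offset, Dennd1c and Ankrd27, which were among the 4, overlapped. Rab3il1 and Hps4 still lay higher, and Dennd6b, which overlapped without the offset, then lay higher too, against 6.6% of all tested genes. Dennd4a, an exchange factor for Rab10, had the smallest p of this list, with 55.5, 64.8 and 78.5 CPM in the Vdbp libraries and 79.5, 94.7 and 72.2 CPM in the empty-vector libraries. Its groups overlapped, and its log2 fold change was −0.31 (adjusted p = 0.781, edgeR). Sbf1, the most abundant of the list at 29.5 FPKM and an exchange factor of the DENN family, had a log2 fold change of 0.14, and of 0.0081 with the offset. Of 36 GTPase-activating proteins, 35 were tested, with a median of 0.01. In 1 of these 35 every Vdbp library lay above every empty-vector library, against 5.26% of all tested genes. In 3 of the 35 every Vdbp library lay below, against 5.61%. Tbc1d25, which acts on autophagosomes, had 23.7, 21.1 and 18.02 CPM in the Vdbp libraries and 17.1, 16.8 and 16.8 CPM in the empty-vector libraries. Its 3 Vdbp libraries lay above the empty-vector libraries, and its log2 fold change was 0.31 (adjusted p = 0.781, edgeR). Rabgap1l, a GTPase-activating protein for endosomal Rabs, had 4.05, 4.06 and 4.54 CPM in the Vdbp libraries and 5.29, 6.76 and 4.91 CPM in the empty-vector libraries, with a log2 fold change of −0.42. Its 3 Vdbp libraries lay below the empty-vector libraries. With the length and GC offset the log2 fold changes were 0.18 for Tbc1d25, −0.21 for Rabgap1l and −0.15 for Dennd4a. The groups of Rabgap1l then overlapped. Tbc1d20, a Rab1 GTPase-activating protein and the most abundant of this list at 72.9 FPKM, had a log2 fold change of 0.03, which turned to −0.032 with the offset.

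Of 47 effectors, 36 were tested, with a median of −0.10 and 23 below 0. In 3 of these 36 (Lrrk2, Optn and Fyco1) every Vdbp library lay below every empty-vector library, against 5.61% of all tested genes. In 1 (Rabep2) every Vdbp library lay above, against 5.26%. With the length and GC offset, the groups of Rabep2 overlapped and its log2 fold change was −0.02. Lrrk2, Optn and Fyco1 still lay lower, and Ehbp1 and Rab11fip3 then lay lower too, against 6.91% of all tested genes. Lrrk2, the kinase that phosphorylates Rab8a, Rab10 and Rab12, had the smallest p of all 4 lists. It had 54.9, 65.6 and 71.6 CPM in the Vdbp libraries and 81.2, 91.5 and 77.5 CPM in the empty-vector libraries, with no overlap. Its log2 fold change was −0.38 (SE 0.12, adjusted p = 0.781, edgeR), and −0.23 with the length and GC offset. Optn, a Rab8 effector and autophagy receptor, had 12.4, 12.5 and 11.9 CPM in the Vdbp libraries and 16.4, 14.9 and 13.5 CPM in the empty-vector libraries, with a log2 fold change of −0.28. Ehbp1l1, a Rab8 effector and the most abundant of the list at 37.2 FPKM, had a log2 fold change of 0.16, and of 0.03 with the offset. The 3 Lrrk2 substrates named above had log2 fold changes between −0.17 (Rab12) and 0.02 (Rab10).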

How the data were processed

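The authors deposited a table of whole-number counts and a table of FPKM for 54532 genes in the 6 libraries. Per the submitters' processing notes the tools were HISAT2 and StringTie, with no version. No genome build, read length, strand setting or counting step is stated there or in the file headers. Of the deposited gene identifiers, 99.9% were found in GENCODE M21 (GRCm38), 98.3% with the same start and end, so its coordinates, GC content and sequences were used. The deposited FPKM values equal the counts divided by gene length and by 1 constant per library, which is not the summed count. FPKM served for levels between genes and TMM-scaled CPM for comparisons between groups.

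Genes were kept with edgeR 4.0.16 in R 4.3.3 (minimum count 10 in the smaller group, minimum total 15), and 12844 were tested with the quasi-likelihood F test, group as the only term, and Benjamini-Hochberg adjustment over all of them at 0.05. Intervals are 95%. Alternatives used DESeq2 1.42.0, limma 3.58.1 and a length and GC offset from mgcv 1.9.3. Correlations between libraries were 0.978 to 0.992, and no pair looked like a repeat deposit of 1 library.

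The members, compartments and pathway lists were chosen with earlier results of these data known. Values per library are given for the member with the highest FPKM of each compartment, the 8 with the smallest p, all whose groups do not overlap and those with a fold change past 2-fold. For each pathway list the member with the highest FPKM and the 2 with the smallest p were eligible. Shares within close relatives and Rab1a, Rab5b, Rab11b and Rab27-binding effectors were added after values were seen. Counting floors cover counting error only.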

Additional observations from a re-analysis of the deposited data

How the results depend on the processing

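No Rab gene and no gene of the 4 pathway lists passed an adjusted p of 0.05 under any of 18 alternatives. Over all genes the count of calls was 0, against 11 with DESeq2, 89 with no filter on low counts, 2 with the length and GC offset, 4 with limma on log2(FPKM + 1) with no filter, 2 without both Vdbp library 1 and empty-vector library 2, and 0 to 22 leaving out 1 library (22 without empty-vector library 3). The median log2 fold change of the Rabs, −0.06, ranged from −0.085 to −0.033 leaving out 1 library and was −0.032 without those 2 libraries. Between 29 and 36 Rabs lay below 0 (of 46 tested, or 52 with no filter), and the smallest adjusted p of a Rab ranged from 0.418 to 1.0 over the alternatives. Of 504 values of 28 named genes, 17 reversed, in 8 genes. With the offset Rab40c was −0.0017 and Tbc1d20 −0.032, and with offset and replicate block Rab40c was −0.0034 and Tbc1d20 −0.030. Without both libraries Rab40c was −0.080, Tbc1d20 −0.015, Rab11b −0.10, Rab5c −0.0091, Rab1a 0.034, Ehbp1l1 −0.056 and Sbf1 −0.044. Leaving out 1 library, Rab10 ranged from −0.030 to 0.075, Rab11b from −0.044 to 0.11 and Tbc1d20 from −0.012 to 0.071. The cause was not tested. Deviations of libraries with the same replicate number had correlations of 0.126, 0.0185 and −0.243. With the length and GC offset these were −0.00125, −0.0944 and −0.135. Deviations were taken from each group's own mean over 3 libraries, so these values cannot show whether the replicates were paired. A replicate block gave 0 calls over all genes, 0 Rabs called and a Rab median of −0.07. It changed no other call of a Rab or pathway list. Rab37 ranged from −1.30 to −0.16 over the alternatives (the smallest on the log2(FPKM + 1) scale, which shrinks low genes), Rab5a from −0.36 to −0.10, Rab11a from −0.25 to −0.09, Rab7b from −0.28 to −0.17 and Lrrk2 from −0.47 to −0.21. The sign was the same in all 18 alternatives for 17 of 46 Rabs, 13 lower and 4 higher. The 4 Rabs whose intervals went past 2-fold all averaged under 1 FPKM.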

Other observations

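Several effectors known to bind Rab27 were at or near 0 in these libraries, while Rab27a itself averaged 2.84 FPKM. They are Mlph, Exph5, Unc13d and Sytl1 to Sytl5, grouped after their values were seen. None of these 8 reached the filter, 3 had 0 counts in every library, and the highest count of any in a library was 12. Rph3a, which also binds Rab27, was tested and had 19, 10 and 16 counts in the Vdbp libraries and 18, 13 and 20 counts in the empty-vector libraries. Rab7 relative to Rab7b, as log2 of the FPKM ratio, was 4.04, 3.98 and 4.25 in the Vdbp libraries and 3.96, 3.93 and 3.91 in the empty-vector libraries. The difference was 0.16, and 0.15 with the length and GC offset. That of Rab5c relative to Rab5b was 0.23 without the offset and 0.11 with it. Both ratios were picked after the values were seen, and neither was tested.

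Some transcripts named for Rab genes are not members. The antisense transcript Rab10os had 296, 243 and 228 counts in the Vdbp libraries and 187, 224 and 302 counts in the empty-vector libraries, and the groups overlapped. The pseudogene Rab7-ps1 had 142, 112 and 132 counts in the Vdbp libraries and 134, 134 and 123 counts in the empty-vector libraries. Of the 50-base windows of Rab7, 12.7% are shared, in part with Rab7-ps1.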
